A study of Mus musculus with 6 samples.

Results

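Cholesterol synthesis was followed through 8 genes chosen by symbol: the transcription factor gene Srebf2 and the enzyme genes Hmgcs1, Idi1, Fdps, Fdft1, Sqle, Cyp51 and Nsdhl. All 8 symbols were found among the 43346 gene IDs counted, and all 8 were among the 15561 genes that passed the filter on low counts. None of the 8 is an uptake gene, so uptake is described through a separate list. The tissue was liver from C57BL6 mice aged 3 months, and no treatment is named for any of them. The DKO group (3 libraries) is described as a double knockout, in hepatocytes, of Ctnnb1 (β-catenin) and Jup (γ-catenin). The Control group (3 libraries) has the same strain, tissue and age. What drives the deletion in hepatocytes, and which alleles either group carries, is not given in the sources used here. Nothing in the labels says that the libraries of a group came from separate animals, and every p-value rests on the spread among libraries alone.

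Cells make cholesterol from acetyl-CoA through the mevalonate pathway, whose isoprenoid products are joined to squalene, closed into lanosterol and trimmed to cholesterol. When membrane sterol in the endoplasmic reticulum is low, SCAP carries SREBP2, the product of Srebf2, to the Golgi for cleavage, and the freed factor enters the nucleus and raises transcription of nearly every enzyme of the pathway. The liver is a main site of this synthesis and the organ that clears LDL from plasma and turns cholesterol into bile acids.

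The DKO libraries stood apart before any cholesterol gene was considered. They held 309731, 525037 and 1491237 reads assigned to genes in replicates 1, 2 and 3, against 12320487 to 15869639 in Control. Rows naming no gene took 95.3% to 97.3% of DKO reads and 65.1% to 66.7% of Control reads. Mitochondrial genes took 6.27%, 14.4% and 62.7% of gene reads in DKO replicates 1, 2 and 3, against 6.34% to 6.57% in Control, and TMM factors ran from 0.641 to 2.68 in DKO and from 0.783 to 0.827 in Control. DKO replicate 3, with the high mitochondrial share, was also the library with the highest levels of Srebf2, Hmgcs1, Idi1 and Abcg1 below. The 6 hepatocyte markers (Alb, Ttr, Serpina1a, Cps1, Ass1 and Tat) were detected in every library. Their summed level was 479, 33862 and 5948 CPM in DKO replicates 1, 2 and 3, and 100927 to 109909 CPM in Control, where CPM are counts scaled to library size by TMM, edgeR's correction for library composition. The 4 bile duct markers (Krt19, Krt7, Epcam and Sox9) summed to 117 to 213 CPM in DKO and 5.01 to 15.2 CPM in Control. Sums overlapped for the 4 stellate cell markers (127 to 227 CPM in DKO, 194 to 294 CPM in Control), and did not for the 5 Kupffer cell markers (6.37 to 105 CPM in DKO, 197 to 252 CPM in Control) or the 4 sinusoidal endothelial ones (58.6 to 127 CPM in DKO, 175 to 301 CPM in Control). Single markers that overlapped between the groups were Stab2 and Lyve1 (endothelial), Marco (Kupffer cell), Reln and Lrat (stellate) and Krt19 (bile duct). Sox9 gave 78 of 92, 67 of 74 and 126 of 197 bile duct reads in DKO replicates 1, 2 and 3. Krt7 had 2, 1 and 13 reads there, against 13.2, 10.4 and 24.1 expected from background as described below. Of all these markers, Clec4f, Vsig4, Marco, Clec4g, Fcgr2b and Krt19 were at 0 reads in DKO replicate 1 and none was at 0 elsewhere. The part of these differences in the results below was not tested. In whole liver, fewer cells of a type and less RNA per cell cannot be told apart. A difference in library quality, with 95.3% to 97.3% of DKO reads in rows naming no gene, goes with group too and was not tested. The targeted Ctnnb1 had 0, 52 and 65 reads in DKO and 2945, 2896 and 2650 in Control, and Jup had 6, 1 and 11 reads in DKO and 339, 270 and 196 in Control. Neither passed edgeR's quasi-likelihood test at an FDR (the Benjamini-Hochberg adjusted p over all genes tested) of 0.05 (FDR 0.171 and 0.0847). Each passed without DKO replicate 1 (0.0119 and 0.0434) and in no other fit without 1 library. Directions below are therefore between libraries as labelled. Both are set against the reads expected from background and liver RNA further below.

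Promoter sequences, running from upstream of the RefSeq start to just past it (build GRCm38.p6), were found for 5 of the 8 genes: Srebf2, Hmgcs1, Idi1, Cyp51 and Nsdhl. They are shown for the regulator, for the first enzyme and for the gene with the clearest difference below, because all 3 belong to a programme known to be driven from such elements. Capitals mark the sterol element TCACNCCAC, the shorter TCACCCCA (its first bases with N as C, here called the core) and the CCAAT box. Each was searched on both strands, and the CCAAT box is known to bind NF-Y. The core was added after these promoters had been read, and where it overlaps the element the bases are shared.
Srebf2, chr15:82147019-82147318, plus strand: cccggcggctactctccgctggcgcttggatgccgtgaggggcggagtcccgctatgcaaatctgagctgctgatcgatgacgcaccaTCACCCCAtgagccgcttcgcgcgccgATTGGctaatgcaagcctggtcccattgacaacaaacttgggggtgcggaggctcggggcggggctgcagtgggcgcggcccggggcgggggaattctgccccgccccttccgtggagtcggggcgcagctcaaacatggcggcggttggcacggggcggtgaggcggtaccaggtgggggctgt
Hmgcs1, chr13:119690101-119690400, plus strand: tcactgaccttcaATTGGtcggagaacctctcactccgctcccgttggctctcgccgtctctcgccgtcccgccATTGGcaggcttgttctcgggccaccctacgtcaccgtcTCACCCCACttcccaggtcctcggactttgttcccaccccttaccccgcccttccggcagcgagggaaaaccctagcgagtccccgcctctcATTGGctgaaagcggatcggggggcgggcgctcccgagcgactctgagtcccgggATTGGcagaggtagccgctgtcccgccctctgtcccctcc
Nsdhl, chrX:72918271-72918570, plus strand: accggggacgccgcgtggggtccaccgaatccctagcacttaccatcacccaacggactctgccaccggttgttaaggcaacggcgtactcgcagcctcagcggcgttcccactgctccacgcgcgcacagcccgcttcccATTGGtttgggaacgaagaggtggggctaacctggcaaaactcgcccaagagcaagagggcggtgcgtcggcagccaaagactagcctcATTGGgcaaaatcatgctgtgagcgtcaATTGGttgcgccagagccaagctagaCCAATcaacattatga

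The sterol element TCACNCCAC was present in 1 of the 5 promoters, that of Hmgcs1, where it begins 137 bases before the start, and in 1.24% of all 32851 promoters of the table. The core TCACCCCA was present in Hmgcs1 and in Srebf2, 162 bases before the start, and in 1.56% of all promoters. Because the core was added after these promoters had been read, its matches in them cannot be weighed against that share. All 5 promoters held a CCAAT box, against 37.4% of all promoters, and all 5 a GC box (GGGCGG), the motif known for SP1, against 35.7%. The E-box CACGTG was in 0 of the 5 and in 7.15% of all. A match of letters is a description of the window and shows no binding.

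Srebf2 (ENSMUSG00000022463, mm10 chr15:82147181-82205379, plus strand), the regulator, did not pass the test. It had 19, 15 and 64 reads in DKO replicates 1, 2 and 3, against 319, 385 and 292 in Control. On the TMM scale these were 24.2, 25.8 and 69.2 CPM in DKO and 24.3, 35.1 and 30.3 CPM in Control. The groups overlapped, with DKO replicate 3 the highest library and DKO replicates 1 and 2 near the lowest Control one. The log2 fold change (log2FC, DKO over Control as throughout) was 0.42 ± 0.60 (SE; edgeR FDR 0.576). The microRNA gene Mir33, which lies within Srebf2 on the same strand, had 0 reads in every library.

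Hmgcs1 (ENSMUSG00000093930, chr13:119690379-119708260, plus strand), the cytosolic enzyme that makes HMG-CoA, also fell short of the threshold. It had 2, 17 and 60 reads in DKO and 729, 630 and 582 in Control. These were 2.55, 29.2 and 64.9 CPM in DKO and 55.6, 57.4 and 60.5 CPM in Control. The DKO libraries lay below, below and above all Control libraries, in the order of their numbers, and the 3 Control libraries lay close together. The log2FC was -0.83 (SE 0.85, FDR 0.429 in edgeR).

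Idi1 (ENSMUSG00000058258, chr13:8885501-8892451, plus strand) interconverts the isoprene units from which longer chains are built. It had 0, 7 and 28 reads in DKO and 137, 142 and 82 in Control, the fewest Control reads of the 8 genes. These were 0, 12.0 and 30.3 CPM in DKO and 10.5, 12.9 and 8.52 CPM in Control. The groups overlapped, with a log2FC of 0.43 (SE 1.01, FDR 0.739 in edgeR). A count of 0 in DKO replicate 1 allows up to 3.82 CPM (3 reads), a limit that covers counting error only.

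Fdps (ENSMUSG00000059743, chr3:89093588-89101959, minus strand), the farnesyl diphosphate synthase, was lower in every DKO library than in every Control one. It had 4, 14 and 21 reads in DKO and 577, 512 and 468 in Control. These were 5.09, 24.1 and 22.7 CPM in DKO and 44.0, 46.7 and 48.6 CPM in Control. The log2FC of -1.43 (SE 0.66) had an FDR of 0.100 in edgeR. It passed without DKO replicate 1 (FDR 0.0248) and without DKO replicate 2 (FDR 0.0424). It did not pass without DKO replicate 3 (0.0720) or without any 1 Control library (0.229 to 0.239). Leaving out DKO replicate 1 or 2 also raised the lower calls over all genes, from 1992 to 3685 and 4492.

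Fdft1 (ENSMUSG00000021273, chr14:63145150-63179578, minus strand), the squalene synthase that commits isoprenoids to sterols, differed most between the DKO libraries. It had 0, 47 and 11 reads in DKO and 825, 901 and 731 in Control. These were 0, 80.8 and 11.9 CPM in DKO and 63.0, 82.1 and 76.0 CPM in Control. DKO replicate 2 lay within the Control range and the other 2 DKO libraries far below it. The log2FC was -1.29 (SE 1.14, FDR 0.361 in edgeR), and -3.73 (FDR 0.0171) without DKO replicate 2. Fdft1 passed in no other fit without 1 library (FDR 0.310 to 0.568).

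Sqle (ENSMUSG00000022351, chr15:59315077-59331192, plus strand), the squalene epoxidase, a rate-limiting step after squalene, had the fold change nearest to 0. It had 25, 20 and 13 reads in DKO and 270, 324 and 270 in Control. These were 31.8, 34.4 and 14.1 CPM in DKO and 20.6, 29.5 and 28.1 CPM in Control. DKO replicates 1 and 2 lay above all Control libraries and DKO replicate 3 below them. The log2FC was 0.03 (SE 0.59, FDR 0.971 in edgeR), which does not show that the levels were alike.

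Cyp51 (ENSMUSG00000001467, chr5:4081145-4104746, minus strand), the lanosterol demethylase, was lower in all DKO libraries without passing the threshold. It had 0, 13 and 19 reads in DKO and 901, 906 and 677 in Control. These were 0, 22.4 and 20.6 CPM in DKO and 68.8, 82.6 and 70.3 CPM in Control. The log2FC of -2.38 (SE 0.95) had an FDR of 0.0674 in edgeR. It passed without DKO replicate 1 (-1.93, FDR 0.00313) or 2 (-2.96, FDR 0.0466). It did not pass without DKO replicate 3 (FDR 0.0730) or without any 1 Control library (0.154 to 0.167).

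Nsdhl (ENSMUSG00000031349, chrX:72918557-72958514, plus strand) was the only one of the 8 genes to pass, and it fell. Its product is a sterol dehydrogenase that helps to strip methyl groups from lanosterol derivatives. It had 1 read in each DKO library and 278, 313 and 242 reads in Control. These were 1.27, 1.72 and 1.08 CPM in DKO and 21.2, 28.5 and 25.1 CPM in Control, with no overlap. Its log2FC was -4.22 (SE 0.79, FDR 0.00196 in edgeR). Pooled over the libraries, 3 reads in DKO against 833 in Control gave 5.30% of the Control level on the TMM scale (exact 95% interval 1.09% to 15.5%, counting error only). Leaving out any 1 of the 6 libraries kept the call, with FDR from 0.00163 to 0.0197. Scaled instead on 163 abundant liver genes, Nsdhl kept its direction and lost the call, with a log2FC of -0.75 (FDR 0.612) and a pooled level of 43.7% of Control (8.99% to 128%).

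**Figure D1:**
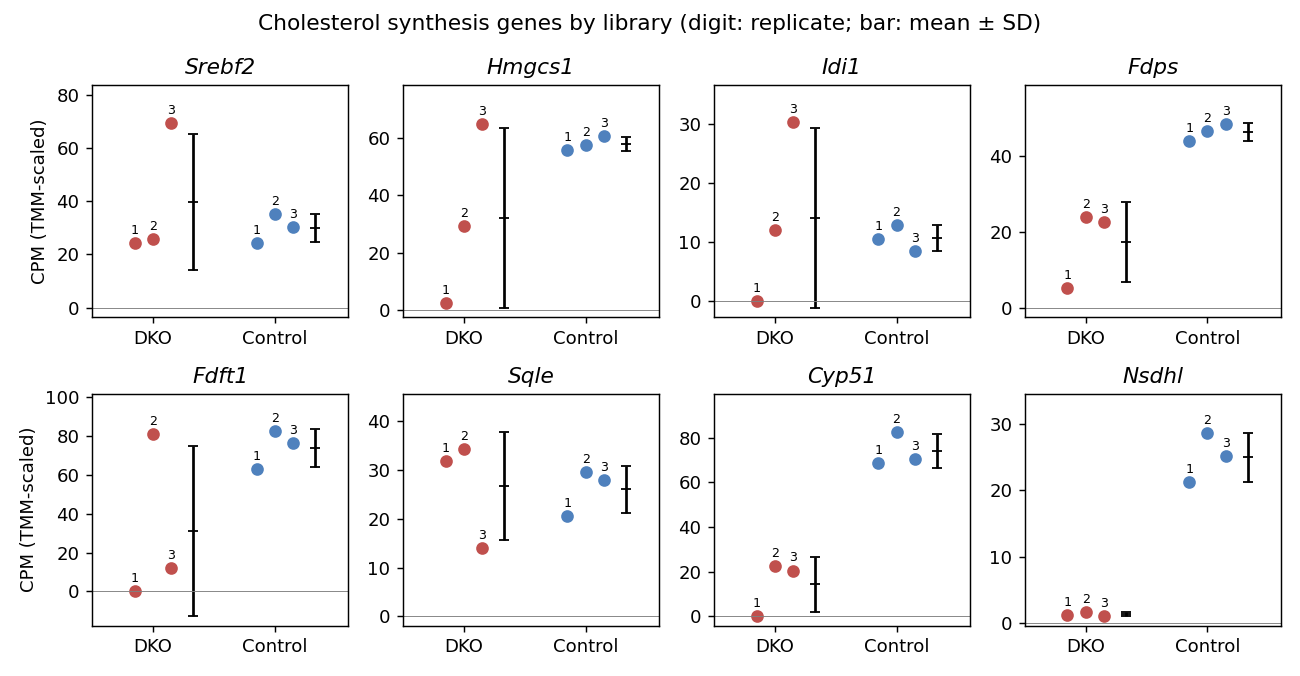
TMM-scaled CPM of each gene in each library, DKO (red) left of Control (blue), with the replicate number above each point and the mean ± SD (n = 3) beside each group. The 3 DKO points of Nsdhl lie between 1.08 and 1.72 CPM and those of Control between 21.2 and 28.5 CPM. For Srebf2, Hmgcs1, Idi1, Fdft1 and Sqle the groups overlap.

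Of the 8 genes, 1 was called lower and 0 higher in edgeR, against 12.8% lower and 31.3% higher among all genes tested. At an unadjusted p under 0.05, 2 of the 8 were lower and 0 higher, against 20.4% lower and 33.7% higher among all genes tested. DESeq2 called 3 lower (Fdps, Cyp51 and Nsdhl), against 30.7% of all genes, and limma-voom 1 (Nsdhl), against 10.7%, with 0 higher in either. Among the 5842 genes with a mean Control level between those of Idi1 and Cyp51 (10.6 to 73.9 CPM), 20% were called lower and 4.71% higher, so the share of the 8 was near this background. In 3 of the 8 (Fdps, Cyp51 and Nsdhl) the groups did not overlap and DKO was lower, against 36.4% of all genes tested and 50% of those in the same Control range. The median log2FC was -1.06 over the 8, -1.08 in that Control range and -0.08 over all genes tested.

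The direction of 4 of the 8 turned on the abundant-gene scale. Scaling on the abundant liver genes shifted the median over all genes to 4.68 and that of the 8 to 2.98, so the median of the 8 still lay below that of all genes. After background subtraction the order was reversed, with -1.31 over all genes and -0.81 over the 8. No median for the Control range above is given in these settings. On the abundant-gene scale Hmgcs1, Fdps, Fdft1 and Cyp51 turned from negative to positive (3.07, 2.89, 1.16 and 1.01), and Srebf2, Idi1 and Sqle were called higher (5.69, 4.17 and 5.97). These 3 of 8 stand beside 9718 of all 15561 genes tested that were called higher on that scale, and 85 called lower. The 163 genes of that scale were chosen for high Control reads, so any fall of theirs in DKO raises the other genes on it.

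**Figure D2:**
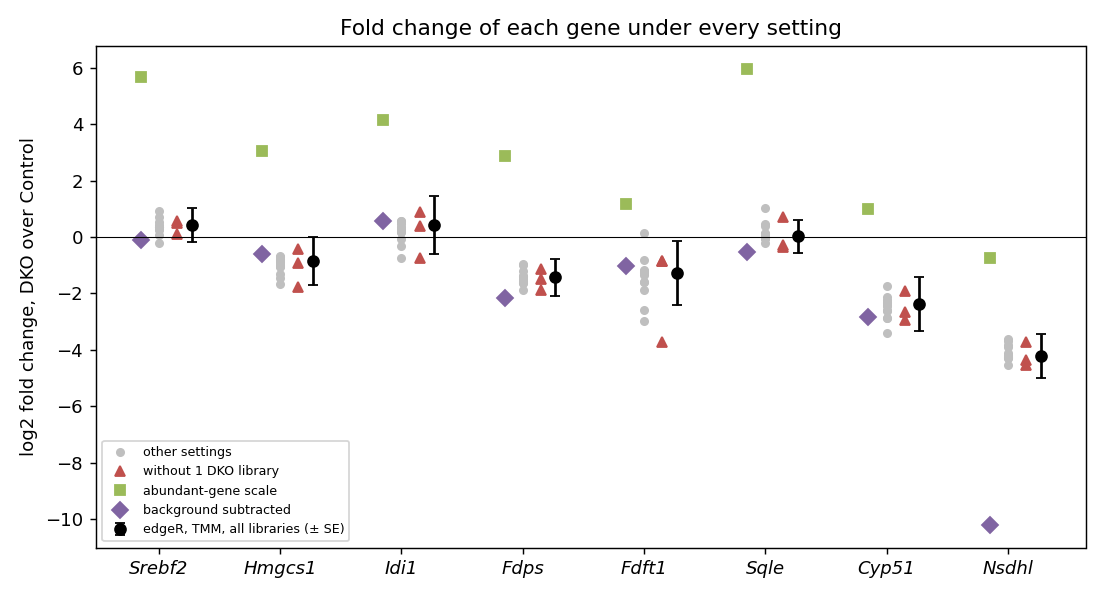
Log2FC (DKO over Control) of each gene, in the fit described (black, ± SE) and in the other settings, with the abundant-gene scale as green squares, subtraction of background reads as purple diamonds and the fits without 1 DKO library as red triangles. Nsdhl is the only gene below 0 in every setting; its diamond at -10.2 comes from 0 reads left in DKO and is no estimate of size.

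Reads of the 8 genes in the DKO libraries were few enough to be set against expected background. Background was the number of reads per exonic kb, in 10 bins of GC content, on 8600 protein-coding genes with at most 10 reads over the 3 Control libraries. The expectation from liver RNA scaled each gene's Control counts by the median ratio of the 163 abundant genes. Both sets of genes were chosen on Control reads alone. Reads of any gene expressed in DKO but nearly silent in Control thus count as background. A lower level of the abundant genes in DKO would lower the expectation from liver RNA. Observed and expected reads are therefore set side by side as a description. In DKO replicate 1 the 8 genes had 51 reads (95% Poisson interval 38.0 to 67.1), against 59.9 expected from background and 1.78 from liver RNA. In DKO replicate 2 they had 134 (112 to 159), against 42.8 from background and 72.0 from liver RNA. In DKO replicate 3 they had 217 (189 to 248), against 103 from background and 21.0 from liver RNA. The sum was thus inside its counting interval of the expectation in DKO replicates 1 and 2 and above it in DKO replicate 3.

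DKO replicate 2 was the only DKO library in which most of the expected sum came from liver RNA. There Srebf2 had 15 reads against 16.0 expected in all, Hmgcs1 17 against 15.9, Idi1 7 against 4.49 and Fdps 14 against 16.0. Cyp51 had 13 against 20.4. The expectation lay inside the Poisson interval for these 5 genes. It lay below the interval for Fdft1 (47 reads, 21.7 expected) and Sqle (20 reads, 12.0 expected), and above it for Nsdhl (1 read, 8.40 expected, of which 5.23 from liver RNA). In DKO replicate 3 the excess lay in Srebf2 (64 reads, 26.2 expected), Hmgcs1 (60 reads, 11.8 expected) and Idi1 (28 reads, 6.43 expected). The targeted Ctnnb1 had 0, 52 and 65 reads in DKO replicates 1, 2 and 3, against 11.4, 60.3 and 34.2 expected. Its reads were thus below expectation beyond the interval only in DKO replicate 1, and above it in DKO replicate 3. Jup had 6, 1 and 11 reads against 11.7, 13.7 and 23.3 expected, below beyond the interval in DKO replicates 2 and 3.

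Background was very uneven between genes, so these intervals are too narrow for single genes. Among 2853 of the nearly silent genes with exonic lengths in the range of the 8 (2853 to 7184 bases), 56.6%, 54.5% and 32.9% had 0 reads in DKO replicates 1, 2 and 3, while the 90th percentile was 17, 13 and 28 reads. Their medians were 0, 0 and 2 reads and their means 5.63, 3.92 and 10.2. The single reads of Nsdhl, the 25 reads of Sqle in DKO replicate 1 and the 20 in DKO replicate 2 are to be read beside that spread. Background expected for Nsdhl (4.49, 3.17 and 7.70 reads in DKO replicates 1, 2 and 3) exceeded its single read in each, so its subtraction left 0 reads in DKO and gives no test of Nsdhl. None of the other 7 genes was called after it.

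**Figure D3:**
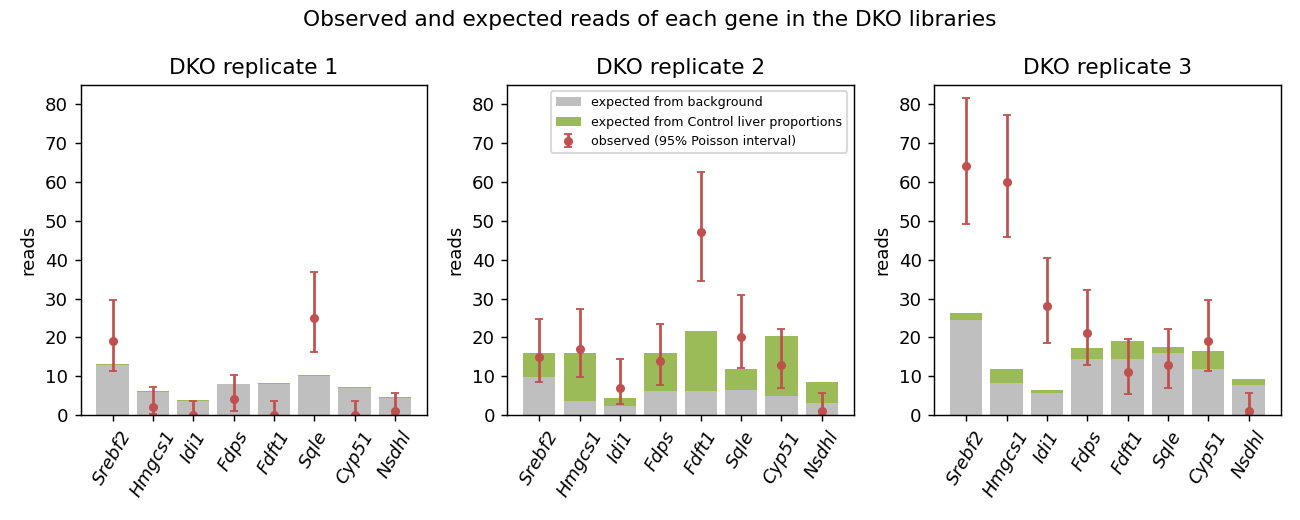
Reads observed for each gene in DKO replicates 1, 2 and 3 (red points, 95% Poisson intervals) over the reads expected from background (grey) and from Control liver proportions (green). In DKO replicate 1 nearly all of the expectation is background, in DKO replicate 2 liver RNA gives most of the sum over the 8 genes but not most for Srebf2, Idi1 and Sqle, and Nsdhl has 1 read in each panel.

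The make-up of the pathway's reads needs no scaling between libraries, but background reads are part of it. In Control it was steady: Cyp51 took 20.2% to 22.3% of the reads of the 8 genes, Fdft1 20.4% to 21.9%, Hmgcs1 15.3% to 18.1% and Srebf2 7.90% to 9.36%. Nsdhl took 1.96%, 0.746% and 0.461% in DKO replicates 1, 2 and 3 (Wilson 95% upper bounds 10.3%, 4.11% and 2.56%) and 6.89%, 7.61% and 7.24% in Control. Its share was below the Control range beyond counting error in DKO replicates 2 and 3 and not in DKO replicate 1, which held too few reads. Cyp51 took 0%, 9.70% and 8.76% in DKO. Srebf2 took 37.3%, 11.2% and 29.5% in DKO, above the Control range beyond counting error in DKO replicates 1 and 3 and not in DKO replicate 2 (Wilson 95% interval 6.90% to 17.6%). Of the background reads expected on the 8 genes, Srebf2 alone had 12.9 of 59.9 in DKO replicate 1 and 24.4 of 103 in DKO replicate 3. The part of background in these shares was not tested. In DKO replicate 1, Sqle and Srebf2 together made up most of the 51 reads, in DKO replicate 2 Fdft1 had the highest share (35.1%), and in DKO replicate 3 Srebf2 and Hmgcs1 did (29.5% and 27.6%).

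**Figure D4:**
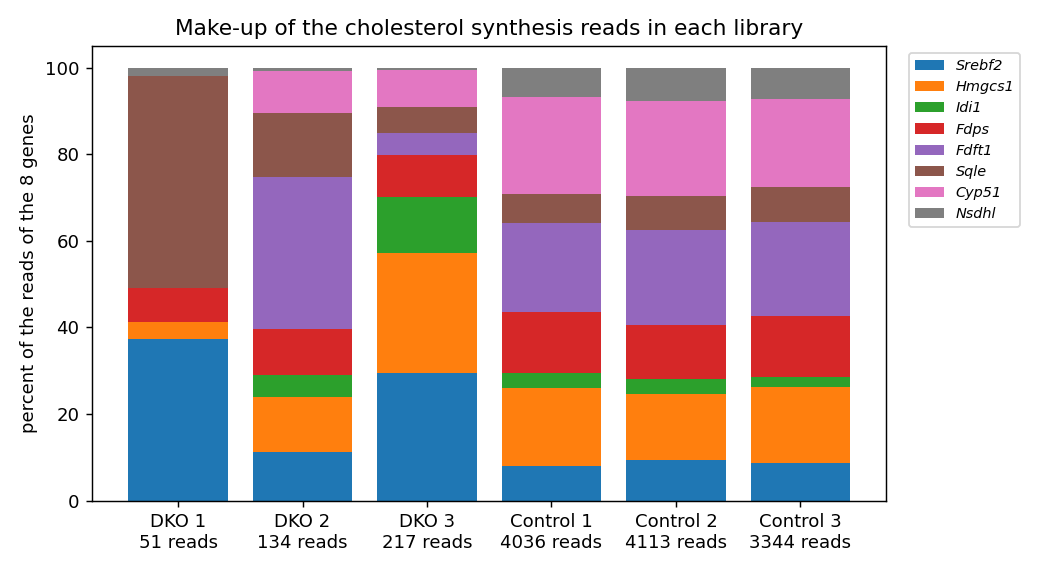
Percent of the reads of the 8 genes that each gene took in each library, with the number of reads under each bar, DKO left of Control. The 3 Control bars are alike and the 3 DKO bars differ from each other; Nsdhl (grey, top) takes under 2% of each DKO bar and 6.89% to 7.61% of each Control bar.

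Per exonic length, the Control libraries gave an order of levels within the pathway. The length was that of all annotated exons of a gene together, which can exceed that of the transcript expressed. Fdps and Idi1 may also lose reads to the 7 and 5 near-identical genes described below, so their places are uncertain. Fdft1 (17.4 ± 2.31 CPM per kb) and Cyp51 (16.7 ± 1.71) were highest and overlapped, followed by Hmgcs1 (12.6 ± 0.53) and Fdps (11.0 ± 0.55), whose libraries did not overlap (SD, n = 3). Nsdhl (8.75 ± 1.28 CPM per kb) came next, and Sqle (4.70 ± 0.86), Srebf2 (4.17 ± 0.75) and Idi1 (3.04 ± 0.63) were lowest, each overlapping its neighbour. In DKO the mean levels were 7.31 ± 10.3 CPM per kb for Fdft1, 7.02 ± 6.81 for Hmgcs1 and 5.53 ± 3.56 for Srebf2, down to 0.48 ± 0.11 for Nsdhl. The libraries of Fdft1, Hmgcs1 and Srebf2 overlapped too widely to be put in order. Nsdhl (0.38 to 0.60 CPM per kb) lay below every DKO library of Srebf2, Sqle and Fdps and overlapped Hmgcs1 and Fdft1.

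Across the 6 libraries, log2(CPM + 0.5) of each gene was compared with the mean of the other 7. Pearson's r was 0.998 for Cyp51, 0.990 for Fdps, 0.939 for Hmgcs1, 0.928 for Fdft1, 0.789 for Idi1 and 0.591 for Nsdhl. It was 0.160 for Srebf2 and -0.248 for Sqle, the pair with the most reads in DKO replicate 1. All points share that library, in which the other 6 genes had 0 to 4 reads. Among 4714 other protein-coding genes with at least 1000 Control reads, the profiles most like the mean of the 8 were those of Memo1 (r = 0.9996), Clpp (0.9992), Slc25a10 (0.9992), Ramac (0.9991) and Hoga1 (0.9989). Each of these 5 had at most 4 reads in DKO replicate 1 and at least 385 in every Control library, and none passed the threshold.

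The other genes of cholesterol handling were read from lists of 38 genes, all tested. In edgeR 2 were called higher and 1 lower, against the same 31.3% and 12.8% of all genes. Their median log2FC was -1.74, against -0.08 over all genes tested and -1.08 over genes in the Control range of the 8. In that range 20% were called lower and 4.71% higher. Not all of the 38 lie in it, and no share for their own Control range was computed. The abundant-gene scale turned 8 of those named below from negative to positive: Acat2, Ebp, Sc5d, Scap, Insig1, Mbtps1, Scarb1 and Mylip. DESeq2 called 2 higher and 20 lower, and limma-voom 1 higher and 2 lower. Over all genes tested, DESeq2 called 35.3% higher and 30.7% lower and limma-voom 29.9% higher and 10.7% lower, and 20.4% were lower at an unadjusted p under 0.05 in edgeR. The counts by list below are to be read beside these shares. Fits without DKO replicate 1 or 2 called 3685 of 16778 and 4492 of 16847 genes lower, against 1992 of 15561 with all libraries. Genes that pass below only without 1 of these libraries are to be read beside those counts.

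Of 6 other enzymes of the mevalonate and isoprenoid steps, 0 were called in edgeR, with 1 at an unadjusted p under 0.05, and 0 in DESeq2 and limma-voom. The smallest FDR belonged to Acat2, the thiolase that supplies acetoacetyl-CoA, with 21, 4 and 9 reads in DKO and 469, 572 and 379 in Control (log2FC -1.54, FDR 0.0829). It passed without DKO replicate 1 (FDR 0.00292) and in no other fit without 1 library (0.0713 to 0.383). Ggps1 and Mvk, which make geranylgeranyl diphosphate and phosphomevalonate, had positive log2FCs of 1.38 and 1.36 (FDR 0.231 and 0.249). Mvk passed without DKO replicate 3 (FDR 0.00606) and in no other fit without 1 library (0.365 to 0.673). Ggps1 turned to -0.34 without DKO replicate 2.

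Of 9 other sterol enzymes 0 were called in edgeR, with 3 lower at an unadjusted p under 0.05, 5 lower in DESeq2 (30.7% of all genes) and 0 in limma-voom. The smallest FDR were those of Ebp, the sterol isomerase, Tm7sf2, a sterol reductase, and Sc5d, the lathosterol desaturase, with log2FCs of -2.14, -2.73 and -2.15 (FDR 0.0684, 0.0763 and 0.0777). In all 3 the groups did not overlap and DKO was lower, as in 24 of the 38 genes of these lists and 36.4% of all genes tested. Each passed without DKO replicate 1 (FDR 0.0463, 0.0263 and 0.0329) and without DKO replicate 2 (0.00385, 0.00728 and 0.00977). None of the 3 passed without DKO replicate 3 (0.128, 0.162 and 0.154) or without any 1 Control library (0.143 to 0.180).

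The machinery that senses sterol and releases SREBP gave 0 calls of 6 genes in edgeR, 3 lower at an unadjusted p under 0.05, 5 lower in DESeq2 (30.7% of all genes) and 0 in limma-voom. Scap, the escort of SREBP, had 1, 28 and 23 reads in DKO and 1785, 1412 and 1311 in Control (log2FC -2.45, FDR 0.0653). Insig1, which holds that escort in the endoplasmic reticulum when sterol is plentiful, had 12, 44 and 46 reads in DKO and 2869, 1868 and 1568 in Control (-1.98, FDR 0.0699). Mbtps1, the first protease to cut SREBP, had a log2FC of -1.71 (FDR 0.0742). All 3 passed without DKO replicate 1 (FDR 0.00655, 0.0141 and 0.0339) and without DKO replicate 2 (0.0244, 0.0224 and 0.00580). None of the 3 passed without DKO replicate 3 or without any 1 Control library.

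Of 8 genes of sterol uptake and transport within the cell, 0 were called in edgeR, with 2 lower at an unadjusted p under 0.05, 4 lower in DESeq2 (30.7% of all genes) and 1 lower in limma-voom (10.7%). Scarb1 had 4, 33 and 15 reads in DKO and 1671, 1362 and 1216 in Control, and Mylip had 1, 0 and 3 reads in DKO and 168, 79 and 82 in Control. Scarb1, the HDL receptor, and Mylip, a ubiquitin ligase of the LXR programme, had log2FCs of -2.30 and -2.50 (FDR 0.0538 and 0.0565). Scarb1 passed without DKO replicate 1 (FDR 0.0210) and without DKO replicate 2 (0.00509). It did not pass without DKO replicate 3 or without any 1 Control library. Mylip was the gene called by limma-voom (FDR 0.0279).

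The 9 genes of efflux, esterification and LXR, the oxysterol receptor that answers to sterol excess, held 2 higher and 1 lower call in edgeR. DESeq2 called 2 higher and 6 lower, and limma-voom 1 higher and 1 lower. Nr1h2, which encodes LXRβ, had 0, 1 and 3 reads in DKO and 608, 567 and 464 in Control, a log2FC of -4.81 (SE 0.86, FDR 0.00165 in edgeR). Like Nsdhl, it kept its direction on the abundant-gene scale but not its call (-1.31, FDR 0.328). Soat1, which esterifies cholesterol for storage and is known from macrophages and adrenal gland more than from hepatocytes, had 111, 64 and 68 reads in DKO and 68, 33 and 37 in Control. Its log2FC was 4.74 (SE 0.65, FDR 0.000737), and 12.6, 7.96 and 17.6 of those DKO reads were expected from background. Abcg1, a sterol exporter, rose by a log2FC of 2.99 (SE 0.88, FDR 0.0215) with 9, 10 and 72 reads in DKO and 98, 35 and 27 in Control. Its call was lost without DKO replicate 3 (FDR 0.0622), without Control replicate 2 or 3 (0.103 and 0.108), with limma-voom (0.0504) and after background subtraction (0.348). Background alone was expected to give 13.7, 10.8 and 24.9 Abcg1 reads in DKO replicates 1, 2 and 3.

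**Figure D5:**
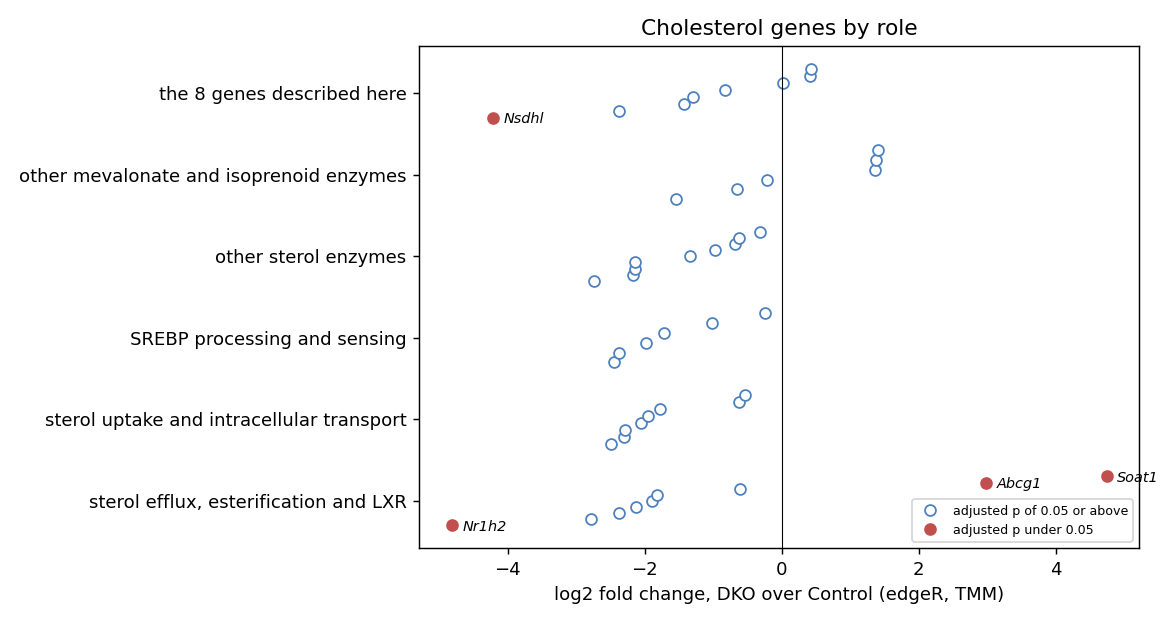
Log2FC (DKO over Control, edgeR, TMM scale) of the 8 genes and of the 38 others by role, one point per gene, filled and named where the FDR is under 0.05. Filled points are Nsdhl and Nr1h2 left of 0 and Abcg1 and Soat1 right of it.

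Some of these counts carry limits from gene structure. Transcripts of Fdps share stretches of at least 200 bases at 90% identity or more with transcripts of 7 other genes, those of Idi1 with 5, those of Sqle with 2, those of Hmgcs1 with 1, and those of Fdft1 with 1, a pseudogene; reads aligning to several places were counted in a row that names no gene. Fdft1 overlaps Ctsb on the opposite strand over 774 bases, and Cyp51 overlaps Akap9 over 166. The strand setting of the counting is not given in the sources used here, so reads from these overlaps cannot be assigned with certainty. Nsdhl, Cyp51 and Srebf2 had no such near-identical transcript.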

How the data were processed

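Per the labels' protocols, liver RNA was purified on RNeasy columns after lysis in RLT, and an outside company handled everything from library to read processing. Each deposited file holds raw counts of reads by gene ID. The submitters' processing notes name HTSeq, STAR and mm10. Tool versions, kit, strandedness and gene models: not given in the sources used here. The 5 rows naming no gene (65.1% to 97.3% of reads) stayed out of library sizes and tests. Names came from a gene name table (42462 of 43346 IDs matched), positions, exonic lengths and GC content from GENCODE M21 on the same build, and promoters from RefSeq.

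The test was edgeR 4.0.16's quasi-likelihood test (R 4.3.3, robust, TMM, filterByExpr by group, no covariates, two-sided), with Benjamini-Hochberg adjustment over all 15561 genes tested and a threshold of 0.05. DESeq2 1.42.0, limma-voom (limma 3.58.1), other scalings and filters, background subtraction, a replicate block and left-out libraries were alternatives. SEs were taken from the fold change and its F statistic. The abundant-gene scale used protein-coding genes, mitochondrial ones excepted, above 30000 summed Control reads. Without molecular identifiers, intervals and limits cover only counting error. No 2 libraries agreed within sampling noise.

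The 8 genes, the lists, the tests and the alternatives were chosen with earlier results of these data known. The rule for other named genes took up to 3 genes per list with the smallest adjusted p, the targeted genes and the 5 genes with the most similar profile among those with at least 1000 Control reads. One gene that the rule named in the uptake list is not reported here, and the counts of that list leave it out.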

Additional observations from a re-analysis of the deposited data

How the results depend on the processing

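Of the 8 genes, 1 was called in the fit described. DESeq2 called 3, DESeq2's size factors 3, upper-quartile factors 2, no filter 4 and the replicate block 2, all lower. The abundant-gene scale called 3, all higher. These counts are to be read beside those over all genes below. Without 1 library the number was 1 to 4. All genes called numbered 6863, with 16127 under no filter, 4569 at an adjusted p under 0.01 and 4710 to 9728 without 1 library. Over all 15561 genes tested, the higher and lower calls were 4871 and 1992, 5486 and 4776 with DESeq2, and 5045 and 3577 with its size factors. They were 5371 and 2439 with upper-quartile factors, 4143 and 2179 with the replicate block, and 9718 and 85 on the abundant-gene scale. Without a filter they were 11477 and 4650 of 30209 genes tested, and after background subtraction 2310 and 2780 of 13335. Without 1 library, 567 to 4492 genes were called lower, of 14002 to 16847 tested.

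Of 24 named genes, 14 changed sign on the abundant-gene scale: among those not given above, Ctnnb1 turned to 0.89, Jup to 3.90, Acat2 to 4.96, Ebp to 2.38, Sc5d to 2.96, Scap to 0.83, Insig1 to 2.49, Mbtps1 to 2.41, Scarb1 to 1.45 and Mylip to 1.23. Those of the 8 were Hmgcs1 (3.07), Fdps (2.89), Fdft1 (1.16) and Cyp51 (1.01). Some genes changed sign in other settings. Srebf2 turned to -0.10 after background subtraction and -0.21 with DKO replicate 2 alone, where Fdft1 turned to 0.14. Idi1 turned to -0.74 with limma-voom, -0.072 without a filter, -0.32 with the block and -0.75 without DKO replicate 3. Sqle turned to -0.023 with limma-voom, -0.21 without a filter, -0.038 with the 1 CPM filter, -0.54 after background subtraction and -0.033 with the block. Without 1 library it ranged from -0.36 to 0.71, and Ggps1 from -0.34 (without DKO replicate 2) to 1.82. The causes were not tested. Same-numbered libraries deviated with correlations of 0.125, 0.0775 and -0.0229, and differently numbered ones with -0.141 to 0.0974. The DKO libraries differ too widely in depth and make-up for these values to settle whether the numbers pair them. The fit on DKO replicate 2 alone takes its spread from the Control libraries only, so only its effect sizes are given. With the replicate block, 6322 genes were called; Cyp51, Tm7sf2, Scap and Scarb1 passed (adjusted p = 0.0240, 0.00782, 0.0309 and 0.0328) and Abcg1 did not (0.0661), in edgeR. Depth limits every DKO value: a count of 0 allows 3.25 to 5.16 CPM there and 0.229 to 0.312 CPM in Control.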
